A study of Nothobranchius furzeri with 20 samples.

Results

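The 200 shortest well-expressed genes of the killifish brain were described here. A gene counted as well expressed when its level averaged 10 CPM (counts divided by the library's summed counts and brought to a common scale) or more over 20 libraries, and 12159 of the 26739 genes in the deposited table did so. The 200 members are those of them with the shortest gene length, 1.64% of the well-expressed genes, and the other 11959 well-expressed genes served as the rest. Group labels did not enter the choice. A high level in a single group or library can still bring a gene to 10 CPM, as it did for some members below.

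The libraries were made from the brain of male turquoise killifish (Nothobranchius furzeri), an annual fish with a short life span, of the strain MZM-04/10p. Swim-tunnel exercise is given for 10 libraries of 27-week fish and for 5 of 9-week fish, and 5 further libraries are of 9-week fish without it. Unexercised fish of 27 weeks were not analysed here, so age was compared among exercised fish and exercise among fish of 9 weeks. Whether every library is of a separate animal is not stated. Libraries are referred to as fish below, and a p-value here reflects the spread among them alone, which may be technical.

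As background, the number of reads that a messenger RNA yields rises with its length as well as with its number of copies, so a short gene needs many copies to reach a given count. In vertebrates, short coding sequences with high expression include those of many ribosomal proteins and of small subunits of the mitochondrial respiratory chain, which nearly every cell makes, while long genes of the brain include many ion channels, cell adhesion molecules and synaptic scaffolds. The identifiers matched no symbol, locus tag, synonym or accession of the RefSeq table at hand (0 of 26739, assembly NfurGRZ-RIMD1). No member is therefore given a name or a role, no sequence is shown, and the labelled tissue could not be checked against markers. Identifiers are printed for the members that stand at the extremes of length, level and change, and the other members are called by their length.

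The lengths of the members were mostly multiples of 3, as whole codons give. Lengths ran from 23 to 384 bp, with quartiles of 303, 330 and 357 bp. Of the 200 members, 3 were under 100 bp, 10 were under 200 bp, 29 were of 200 bp to under 300 bp and 161 were of 300 bp or more. The length was a multiple of 3 in 188 members (94.0%), against 5951 of the 11959 other well-expressed genes (49.8%). It was a multiple of 3 in 194 of the next 200 genes by length (97.0%) and in 74 of the 200 longest (37.0%). A length counted over the coding sequence alone is a multiple of 3, but no annotation was at hand to check which members lack untranslated regions. The 12 members with another length ran from 23 to 362 bp and were spread over the range. A member's transcript may be longer than the length used here.

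At the edge of the set, 8 of the 11 well-expressed genes of 384 bp were members, because rounding parted equal lengths, and the first length outside was 387 bp. The lowest mean level inside was 10.0 CPM, and the highest mean level outside, among genes up to 384 bp, was 9.99 CPM. Below that level, 1001 further genes of up to 384 bp had counts. All 200 members entered every test, none had a count of 0 in any library, and 194 had at least 100 counts in every library. Library totals ran from 15048627 to 34843199 counts, and the members' summed counts from 207405 to 536985.

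**Figure D1:**
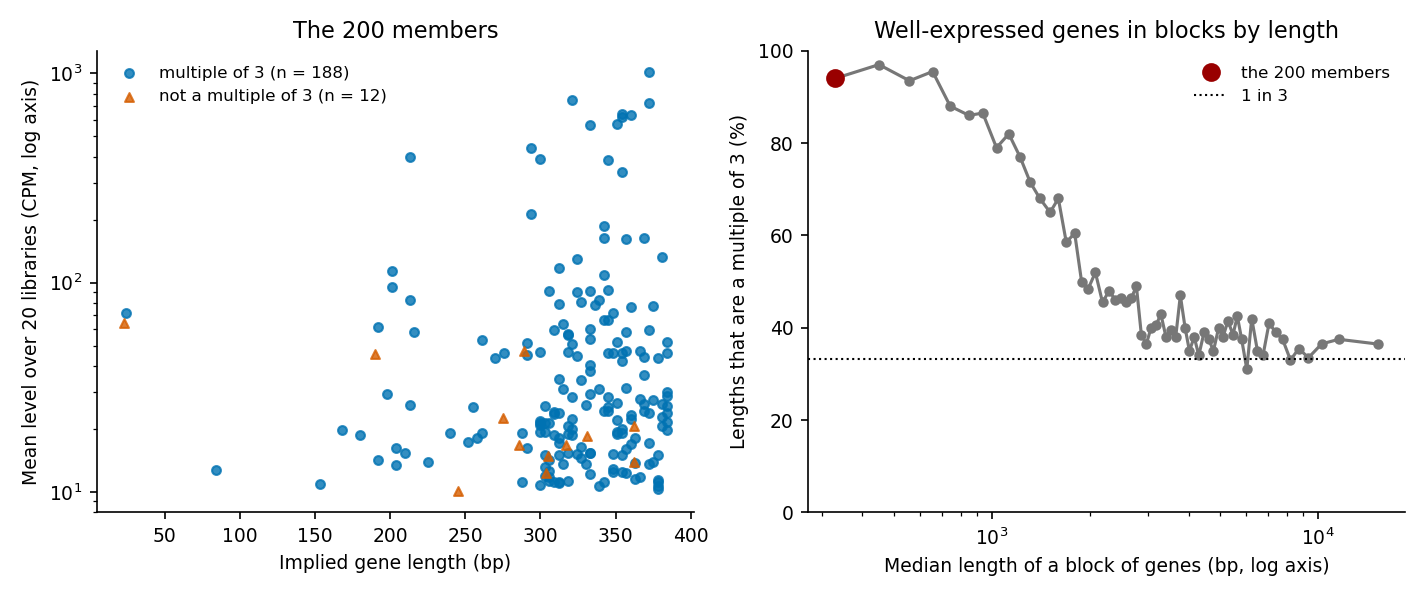
Length and level of the members. The left panel plots the mean level over 20 libraries (CPM, log axis) against length (bp) for each of the 200 members. The right panel plots the percent of lengths that are a multiple of 3 against the median length (bp, log axis) of each of 61 blocks of up to 200 well-expressed genes ordered by length. The members, marked in the right panel, stand at 94.0%, and the blocks of the longest genes stand near 37%.

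Per library the members were modestly expressed, and per kilobase their level was above that of longer genes. Their mean level had a median of 24.2 CPM, against 38.5 CPM in the other well-expressed genes. Levels under 20 CPM were found in 78 members (39.0%) and in 2894 others (24.2%), and levels of 100 CPM or more in 23 members (11.5%) and 2326 others (19.4%). Per kilobase of length the order was the opposite, with a median of 75.3 CPM per kb in the members, 58.1 in the next 200 genes by length, 13.0 in all other well-expressed genes and 10.1 in the 200 longest. The rule asks for 10 CPM at any length, so a short gene had to have a higher level per kilobase to enter, and these medians are descriptions only. Where the length leaves out untranslated regions, the level per kilobase of transcript is lower than stated.

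The counts of the set were concentrated in a few genes. The 10 most counted members held 44.2% of the members' summed mean CPM. The most abundant, Nfu_g_1_000168 (372 bp), had 1063 ± 104 CPM in exercised fish of 27 weeks (SD, n = 10), 937 ± 55.03 CPM in exercised fish of 9 weeks (n = 5) and 1010 ± 67.9 CPM in unexercised fish of 9 weeks (n = 5), or 2737 CPM per kb over all libraries. Its 20 values ran from 860 to 1287 CPM, and the groups overlapped. Members of 321 bp (744 CPM), 372 bp (725 CPM), 354 bp (641 CPM) and 360 bp (634 CPM) followed it.

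The member with the highest level per length was Nfu_g_1_026718 (24 bp), with 2982 CPM per kb. It had 40.6 to 75.9 CPM (median 63.4) in exercised fish of 27 weeks. In exercised fish of 9 weeks it had 75.8, 84.2, 55.2, 84.5 and 107 CPM, and in unexercised fish of 9 weeks 71.4, 112, 76.5, 65.8 and 90.5 CPM. Most 27-week fish were below most 9-week fish, but the groups overlapped. The difference did not pass with all libraries in edgeR's quasi-likelihood test, either against exercised fish of 9 weeks (log2 fold change -0.37, SE 0.17, Benjamini-Hochberg adjusted p = 0.219) or against unexercised fish of 9 weeks (-0.42, SE 0.17, adjusted p = 0.133).

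The shortest member, Nfu_g_1_026254 (23 bp), stood at 2797 CPM per kb. It had 57.2 to 124.6 CPM (median 64.4) in exercised fish of 27 weeks, 52.9 to 60.4 CPM in exercised fish of 9 weeks and 56.0 to 72.1 CPM in unexercised fish of 9 weeks. A single 27-week library held the 124.6 CPM, and the other 9 lay between 57.2 and 69.8 CPM. These 2 lengths are far below those of the third shortest member (84 bp). How reads were assigned to such short entries is not given in the sources used here.

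Replicate 8 of the 27-week fish stood apart from the other 19 libraries, and the members behaved unlike other genes in it. Its TMM scaling factor was 0.731, against 0.984 to 1.05 in the other libraries. The median of the members' log2(CPM + 0.5) lay 0.28 below their mean over all libraries there, and that of the other well-expressed genes 0.49 below. The members took 1.88% of its counts, against 1.31% to 1.59% in the other 19 libraries. Of this, 0.291 percentage points were counts of 2 members, of 381 and 288 bp, that reach 10 CPM only through this library. Without these 2 members the share was 1.59% there, against 1.31% to 1.58% in the other 19 libraries. On the log2 scale, 4 members (2.0%) and 3.56% of other well-expressed genes lay 4-fold or more from their mean over the other 19 libraries. These 4 include the 2 members that reach 10 CPM only through this library.

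Among the remaining members, those of high level stood higher there than those of low level. Those of high level were 22 members of 100 CPM or more, leaving out the 381-bp member that reaches 10 CPM only through this library. Their level is a mean over all 20 libraries, this one included. They took 1.12% of its counts, against 0.788% to 0.989% in the other 19 libraries. In these members, its CPM was 1.17 times the mean of the other 19 libraries (median, range 0.675 to 1.85), and 12 of the 22 (54.5%) were above that mean. Among other genes of 100 CPM or more, the median was 0.636 times, with 11.1% above. The 360-bp member had 1128 CPM in that library and 516 to 712 CPM in the other 19, and the 321-bp member of 744 CPM had 1214 CPM there and 618 to 825 CPM elsewhere. Members under 100 CPM stood at 0.797 times (median), with 31 of 176 above the mean. The level of 100 CPM was chosen after the values were seen.

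A few members had nearly all their counts in that library. A 381-bp member had 2552 CPM there, 4.02 to 15.4 CPM in the other 9 fish of 27 weeks, 0.43 to 1.03 CPM in exercised fish of 9 weeks and 0.638 to 5.66 CPM in unexercised fish of 9 weeks. A 288-bp member had 361 CPM there, 0.700 to 1.96 CPM in the other fish of 27 weeks, 0.258 to 1.12 CPM in exercised and 0.314 to 1.69 CPM in unexercised fish of 9 weeks. Both owe their place in the set to this library and fall under 10 CPM without it, so their high level in it is part of the choice of members. A 339-bp member had 124.7 CPM there and 9.29 to 35.6 CPM in the other 19 libraries.

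Apart from that library, some members differed widely between fish of the same group, and 2 of them are given here. A 240-bp member ranged from 0.0730 to 59.9 CPM in exercised fish of 27 weeks, from 1.95 to 46.6 CPM in exercised fish of 9 weeks and from 1.95 to 18.1 CPM in unexercised fish of 9 weeks. A 333-bp member ranged from 2.43 to 46.9 CPM in exercised fish of 27 weeks, from 1.56 to 22.2 CPM in exercised fish of 9 weeks and from 2.43 to 4.55 CPM in unexercised fish of 9 weeks. The groups overlapped in both. These members were chosen for their spread after the values were seen.

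**Figure D2:**
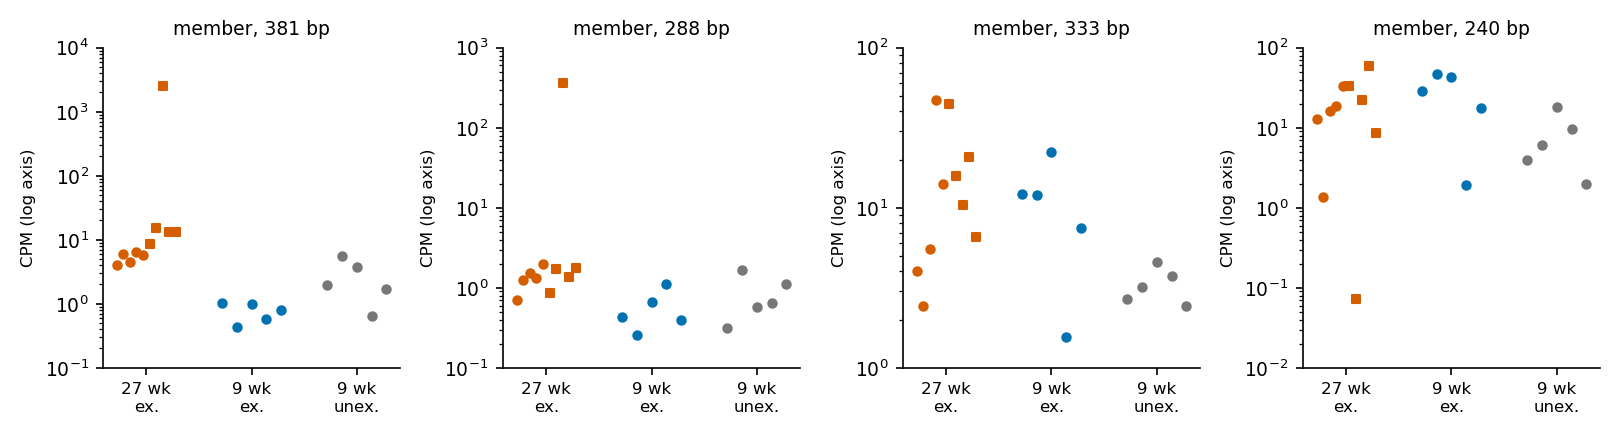
The 4 members with the largest relative spread over 20 libraries. Each panel plots the CPM (log axis) of a member in each library, for exercised 27-week, exercised 9-week and unexercised 9-week fish, with squares for replicates 6 to 10 of 27 weeks. The 381-bp and 288-bp members have 1 point far above all others (2552 and 361 CPM), and the 333-bp and 240-bp members spread widely within groups.

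Few members spread so widely, and the median spread was close to that of other genes. The coefficient of variation of the CPM had a median of 14.2% in exercised fish of 27 weeks (9.93% without replicate 8), 8.14% in exercised fish of 9 weeks and 7.93% in unexercised fish of 9 weeks. In the other well-expressed genes it was 16.1% (11.1%), 8.21% and 8.08% in the same order of groups. A coefficient over 50% was found in 6 members (3.0%) in exercised fish of 27 weeks, 4 (2.0%) in exercised fish of 9 weeks and 5 (2.5%) in unexercised fish of 9 weeks. In the other well-expressed genes these shares were 4.45%, 2.22% and 1.43%.

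Without replicate 8 of 27 weeks, the members tended to move together between fish, and the abundant members most of all. With that library included, both had lower median correlations than the other genes. Over the 19 libraries without replicate 8 of 27 weeks, the correlation of log2(CPM + 0.5) between pairs of members had a median of 0.17. It was 0.54 between pairs of the 22 members of 100 CPM or more, 0.01 between pairs of other well-expressed genes and 0.01 between other genes of 100 CPM or more. With all 20 libraries, the medians were 0.23, 0.12, 0.26 and 0.45 in the same order of gene sets. These values describe libraries that share preparation and groups, and pairs of genes are not independent, so no p is given.

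The members' share of all counts was 1.49 ± 0.163% in exercised fish of 27 weeks (SD, n = 10), or 1.44 ± 0.0916% without replicate 8 (n = 9) and 1.46 ± 0.0980% without the 2 members that reach 10 CPM through it (n = 10). It was 1.36 ± 0.0416% in exercised fish of 9 weeks (n = 5) and 1.42 ± 0.0842% in unexercised fish of 9 weeks (n = 5). The groups overlapped. The median log2 position of the members minus that of the other well-expressed genes was 0.03 ± 0.10 in exercised fish of 27 weeks, -0.04 ± 0.04 in exercised fish of 9 weeks and -0.01 ± 0.05 in unexercised fish of 9 weeks.

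Within the 27-week fish, the numbers in the sample titles form 2 runs of 5 fish each, a lower (replicates 1 to 5) and a higher (replicates 6 to 10), and the members lay differently in them. No label says what the numbers mark. The members' position was 0.11 ± 0.07 in the higher run (0.08 ± 0.04 without replicate 8, which belongs to it) and -0.06 ± 0.05 in the lower run. Each of the 5 fish of the higher run (0.05 to 0.22) was above each of the 5 of the lower run (-0.09 to 0.03). The share of counts was 1.59 ± 0.168% in the higher run (1.52 ± 0.0479% without replicate 8, and 1.53 ± 0.0532% without the 2 members that reach 10 CPM through it) and 1.38 ± 0.0718% in the lower run. The split was known from earlier results of these data, so no test of it is given, and the values for each run stand beside the comparisons with 27-week fish.

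**Figure D3:**
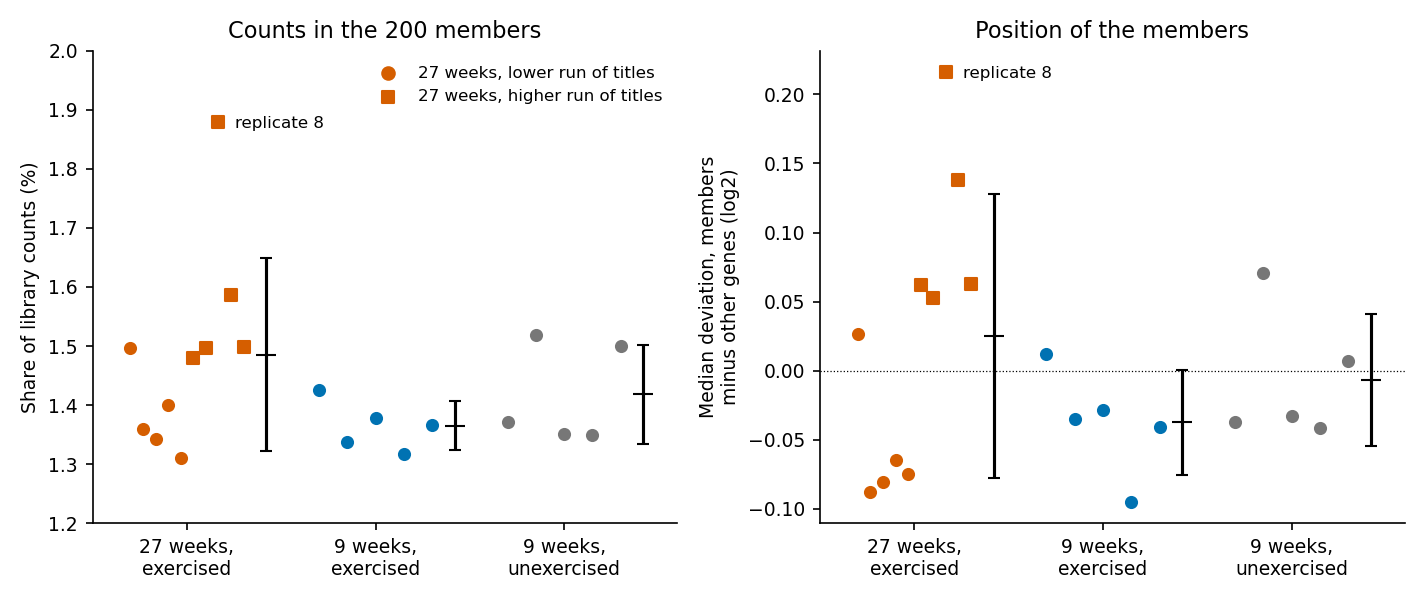
The members as a set in each library. The left panel plots the percent of counts in the 200 members, and the right panel the median log2(CPM + 0.5) deviation of the members minus that of the other well-expressed genes, for exercised 27-week, exercised 9-week and unexercised 9-week fish. Points are libraries, squares are the higher run of 27-week titles, and replicate 8 is the highest point of both panels (1.88% and 0.22).

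The first comparison asked whether exercise at 9 weeks moved the members. In exercised against unexercised fish of 9 weeks, 0 of the 200 members passed (edgeR, adjusted p below 0.05), against 0.0994% of all genes tested (19 of 19123). The lowest adjusted p of a member was 0.221, in a 354-bp member with 47.4, 41.1, 47.3, 43.9 and 43.0 CPM in exercised fish and 49.2, 60.3, 49.1, 48.7 and 53.1 CPM in unexercised fish (edgeR log2 fold change -0.25, SE 0.07). All 5 exercised fish were below all 5 unexercised fish in this member and in a 288-bp member, and in no member were all above. Such groups that do not overlap were found in 2 of 200 members (1.0%) and in 2.94% of all genes tested.

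At an unadjusted p below 0.05, edgeR had 12 members (6.0%), against 12.1% of all genes tested. DESeq2 called 2 members, against 1.75% of the genes to which it gave an adjusted p. They were the 333-bp member with wide spread (12.1, 12.0, 22.2, 1.56 and 7.47 CPM in exercised fish, 2.695, 3.19, 4.55, 3.76 and 2.43 CPM in unexercised fish, DESeq2 log2 fold change 1.71, SE 0.47, adjusted p = 0.0231) and the 381-bp member with 2552 CPM in a 27-week library (DESeq2 log2 fold change -1.86, SE 0.51, adjusted p = 0.0237). Their edgeR adjusted p-values were 0.244 and 0.226.

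More members lay lower than higher in exercised fish, by amounts that were small and changed with the scaling. With library totals only, the median over all genes tested rose as well. The median log2 fold change of the members was -0.04, with 69 of 200 (34.5%) above 0, against a median of -0.00 and 49.3% above 0 over all genes tested. The median standard error of a member was 0.07. With library totals only, 93 members (46.5%) were above 0 and their median was -0.0135, against 0.02 over all genes tested. With a length trend removed, 97 (48.5%) were above 0 and their median was -0.0053. That trend is fitted on length, by which the members were chosen, so it can draw their median toward 0 by itself. Without replicate 4 of the exercised fish the median was -0.0126, and without replicate 2 of the unexercised fish -0.0103. Among the 22 members of 100 CPM or more, 2 were above 0, with a median of -0.10 and a range of -0.17 to 0.09, whereas 47.4% of the other genes of 100 CPM or more were above 0. With library totals only, 4 of the 22 were above 0, with a length trend removed 5, and without any single library between 1 and 4. None of the 22 passed in edgeR. The members' median was the lowest of 61 blocks of up to 200 well-expressed genes ordered by length, and stayed so with library totals only.

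The second comparison asked how the members differed with age among exercised fish. In exercised fish of 27 weeks against exercised fish of 9 weeks, 4 of the 200 members passed (2.0%, edgeR), against 2.16% of all genes tested, so the share was near the background. All 4 were higher at 27 weeks, against 1.16% of all genes tested that passed and were higher. The unadjusted p was below 0.05 in 45 members (22.5%) and in 22.6% of all genes tested.

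The largest rise was in Nfu_g_1_023319 (330 bp), a member of wide spread whose mean level (26.0 CPM) was near the median of the members. It had 13.6 to 56.5 CPM (median 37.9) in exercised fish of 27 weeks, against 16.1, 11.9, 6.84, 6.86 and 5.48 CPM in exercised fish of 9 weeks. Of the 10 fish of 27 weeks, 9 were above all 5 exercised fish of 9 weeks (edgeR log2 fold change 2.04, SE 0.32, adjusted p = 0.0127). Without replicate 4 of the exercised 9-week fish it did not pass (log2 fold change 1.95, edgeR adjusted p = 0.0636). In unexercised fish of 9 weeks it had 9.97, 26.2, 5.45, 13.4 and 36.7 CPM. Exercised fish of 27 weeks did not differ from these beyond the threshold (edgeR log2 fold change 1.06, SE 0.39, adjusted p = 0.117).

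The other 3 rises were small. Nfu_g_1_021454 (309 bp) had 10.2 to 14.7 CPM (median 12.3) in exercised fish of 27 weeks, against 10.8, 9.53, 10.0, 9.05 and 10.2 CPM in exercised fish of 9 weeks, and 9 of 10 were above all 5 (edgeR log2 fold change 0.35, SE 0.08, adjusted p = 0.0358). Its mean in each 9-week group was under 10 CPM, so it reached that level only through the 27-week fish. Its rise is therefore not independent of the choice of members. A 321-bp member had 20.2 to 24.4 CPM (median 22.2) in exercised fish of 27 weeks, against 16.7, 18.97, 16.5, 16.7 and 18.2 CPM in exercised fish of 9 weeks (edgeR log2 fold change 0.39, SE 0.07, adjusted p = 0.0216). This was the only called member in which all 10 fish of 27 weeks were above all 5 exercised fish of 9 weeks. A 381-bp member rose with 16.8 to 25.3 CPM (median 22.6) in exercised fish of 27 weeks, against 20.6, 18.1, 19.7, 16.9 and 18.9 CPM in exercised fish of 9 weeks (edgeR log2 fold change 0.27, SE 0.06, adjusted p = 0.0403).

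Each of these calls was lost in some fits that left out a single library. Of 15 such fits, 1 lost Nfu_g_1_023319, 7 lost Nfu_g_1_021454, 4 lost the 321-bp member and 10 lost the 381-bp member, and the direction held in all. The highest edgeR adjusted p was 0.129 for Nfu_g_1_021454, 0.0794 for the 321-bp member and 0.144 for the 381-bp member.

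The 381-bp member with 2552 CPM in a 27-week library and the 288-bp member with 361 CPM there were not called with all libraries. Both reach 10 CPM only through a 27-week fish, so no fold change or p-value of them against 9-week fish is given. Counts of called members below include them where they passed.

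**Figure D4:**
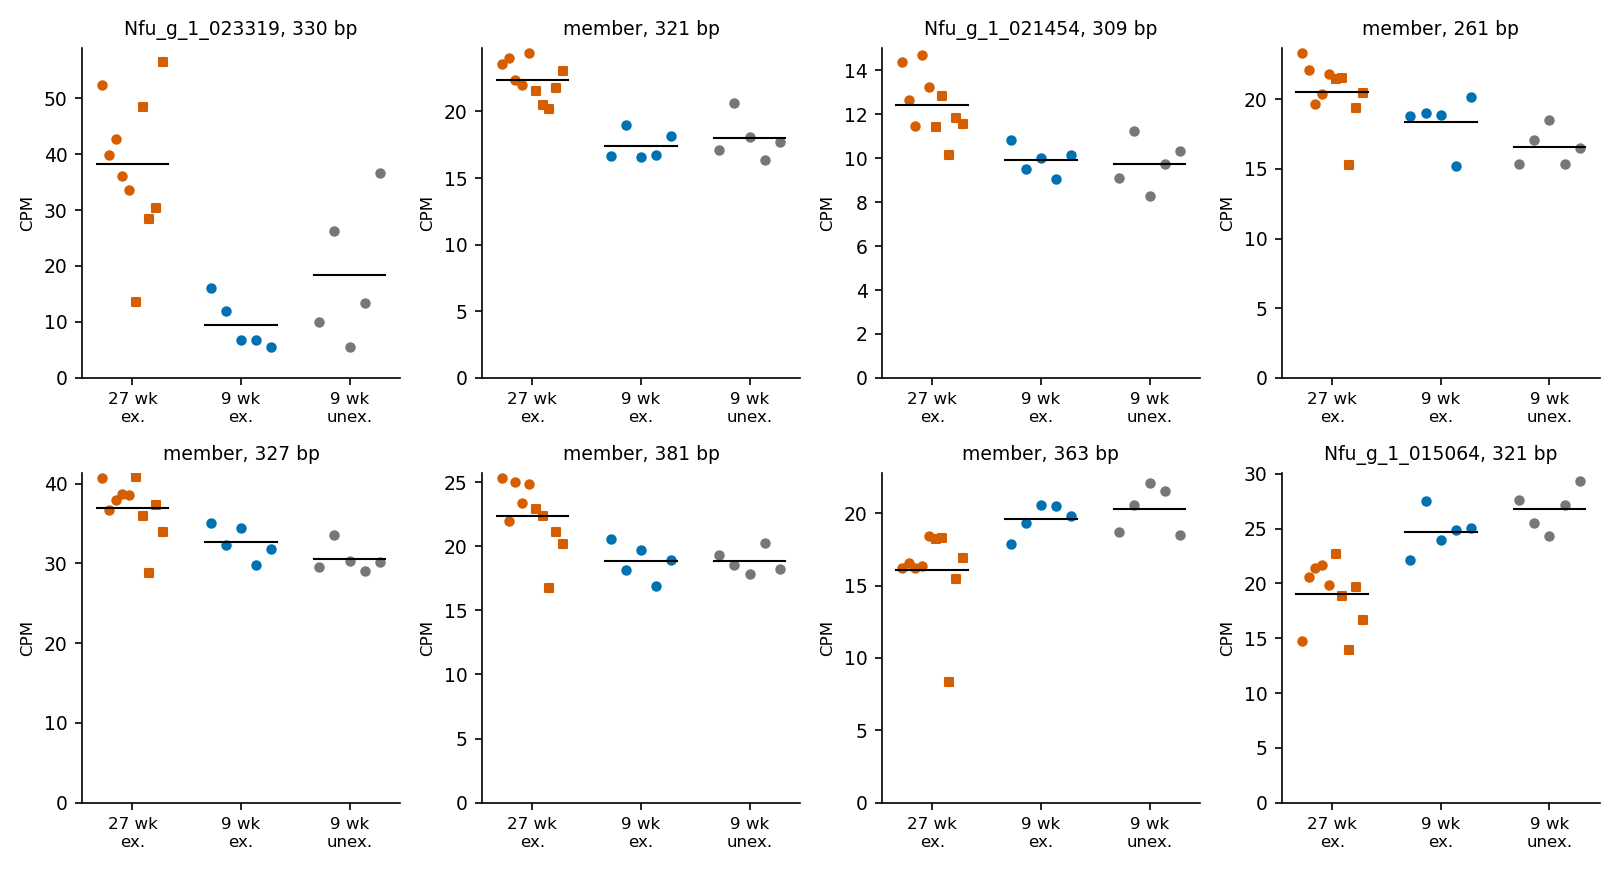
The 8 members called in a comparison with 27-week fish. Each panel plots the CPM of a member in each library, for exercised 27-week, exercised 9-week and unexercised 9-week fish, with a line at each group's mean and squares for replicates 6 to 10 of 27 weeks. Nfu_g_1_023319 (330 bp) spans 5.45 to 56.5 CPM, and the other members differ between groups by less than 1.5-fold.

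The third comparison set exercised fish of 27 weeks against unexercised fish of 9 weeks, where age and exercise both differ and cannot be told apart. It shares its 27-week fish with the age comparison, so calls in both are not independent. Its unexercised fish are shared with the exercise comparison. The exercise and age comparisons share the exercised 9-week fish with opposite sign. Shifts of the members in these comparisons are therefore not independent either. Of the 200 members, 7 passed (3.5%, edgeR), against 4.35% of all genes tested. Of these, 5 were higher (2.5% against 2.57%) and 2 lower (1.0% against 1.79%). The unadjusted p was below 0.05 in 54 members (27.0%) and in 25.3% of all genes tested.

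Nfu_g_1_021454 had the largest rise, with 10.2 to 14.7 CPM (median 12.3) in exercised fish of 27 weeks, against 9.12, 11.2, 8.30, 9.74 and 10.3 CPM in unexercised fish of 9 weeks (edgeR log2 fold change 0.36, SE 0.09, adjusted p = 0.0362, 9 of 10 fish above all 5). It reached 10 CPM only through the 27-week fish, so this rise too is not independent of the choice of members. The 321-bp and 381-bp members that rose in the age comparison rose here as well, by 0.33 and 0.26 on the log2 scale (edgeR adjusted p = 0.0289 and 0.0319). A 327-bp member had 28.8 to 40.8 CPM (median 37.6) in exercised fish of 27 weeks, against 29.5, 33.5, 30.2, 29.0 and 30.2 CPM in unexercised fish of 9 weeks (edgeR log2 fold change 0.29, SE 0.05, adjusted p = 0.0107). A 261-bp member had 15.3 to 23.3 CPM (median 20.9) in exercised fish of 27 weeks, against 15.4, 17.1, 18.5, 15.4 and 16.5 CPM in unexercised fish of 9 weeks (edgeR log2 fold change 0.32, SE 0.06, adjusted p = 0.0130). In each of the last 2 members, 9 of 10 fish of 27 weeks were above all 5 unexercised fish in CPM. The remaining fish, replicate 8, was below them all. CPM use raw library totals, whereas the edgeR fit applies TMM factors, which were low in replicate 8 (0.731). In other well-expressed genes its CPM was 0.689 times the mean of the other 19 libraries (median), so its low values here may be a matter of scaling.

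Both falls had groups that did not overlap. Nfu_g_1_015064 (321 bp) had 13.9 to 22.7 CPM (median 19.7) in exercised fish of 27 weeks, against 27.6, 25.5, 24.3, 27.1 and 29.3 CPM in unexercised fish of 9 weeks (edgeR log2 fold change -0.49, SE 0.09, adjusted p = 0.0119). Exercised fish of 9 weeks had 22.2, 27.5, 23.9, 24.9 and 25.04 CPM, and the difference of 27-week fish from these fell just short of the threshold (edgeR log2 fold change -0.36, SE 0.09, adjusted p = 0.05002, 9 of 10 fish below all 5). A 363-bp member had 8.33 to 18.4 CPM (median 16.5) in exercised fish of 27 weeks, against 18.7, 20.5, 22.1, 21.5 and 18.5 CPM in unexercised fish of 9 weeks (edgeR log2 fold change -0.34, SE 0.09, adjusted p = 0.0485). Its lowest value was that of replicate 8, and without it the log2 fold change was -0.29 (SE 0.06, edgeR adjusted p = 0.0193).

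Over the members, groups that do not overlap were found in 2 members higher and 0 lower at 27 weeks against exercised fish of 9 weeks (1.8% of all genes tested, either direction). One of these is the 381-bp member that reaches 10 CPM through replicate 8. Against unexercised fish of 9 weeks there were 2 higher and 2 lower (2.17% of all genes tested). Counts of this kind use raw CPM, in which replicate 8 stands low for most genes. In 0 members were all 27-week fish above or below all 10 fish of 9 weeks, against 0.576% of the well-expressed genes, and without replicate 8 this held in 1 member, against 1.32%.

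The calls of Nfu_g_1_015064 and the 327-bp member held in all 15 fits that left out a single library, with a highest edgeR adjusted p of 0.0439 for each. The 261-bp member was lost in 2 of them, the 321-bp member in 5, the 381-bp member in 6, Nfu_g_1_021454 in 7 and the 363-bp member in 11.

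The number of members called changed with replicate 8, the run of titles, single fish of 9 weeks and the scaling. The share of all genes tested that passed changed with these too. Without replicate 8, edgeR called 10 members with age among exercised fish (5.0% of the members against 4.71% of all genes tested, 6 higher against 2.57% and 4 lower against 2.13%) and 19 against unexercised fish of 9 weeks (9.5% against 7.93%, 10 higher against 4.62% and 9 lower against 3.3%). The 2 members that reach 10 CPM through replicate 8 are in these counts. Among the other 198, edgeR called 8 with age (4.04%, 4 higher and 4 lower) and 18 against unexercised fish (9.09%, 9 higher and 9 lower). The 198 still include Nfu_g_1_021454 and the 333-bp member of wide spread, which average under 10 CPM over the 9-week fish. Both are among the higher calls against unexercised fish, and Nfu_g_1_021454 also among those with age. All 4 and all 7 calls made with every library were among the members called without replicate 8. All were also called by DESeq2 and with the lower run alone. With the higher run alone, none of the 4 was called, and of the 7 only Nfu_g_1_015064 was. DESeq2 called 18 (9.0% of the members against 8.43% of genes) and 26 (13.0% against 11.4%), and among the other 198 members 16 (8.08%) and 25 (12.6%). In both comparisons DESeq2 replaced the count of replicate 8 as outlying in 3 members, those of 381, 288 and 339 bp with high levels there. Leaving out a single library gave 0 to 10 members in the first of these comparisons and 2 to 19 in the other. The share of all genes tested that passed ran from 0.0356% to 4.71% and from 0.746% to 7.93% in the same fits.

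With the lower run as the only 27-week fish, edgeR called 30 members with age (15% against 16.4% of all genes tested), of which 12 were higher (6.0% against 9.36%) and 18 lower (9.0% against 7.07%). The 381-bp member that reaches 10 CPM through replicate 8 is among the higher ones. Against unexercised fish of 9 weeks it called 43 (21.5% against 23.0%), of which 13 were higher (6.5% against 12.9%) and 30 lower (15% against 10.1%). With the higher run, it called 0 (against 0.592%) and 4 (2.0% against 1.04%), with 76 (38.0% against 24.7%) and 62 (31.0% against 22.7%) at an unadjusted p below 0.05.

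The levels of 2 members, picked after their values were seen, differed between the runs. A 339-bp member had 5.84 to 8.53 CPM in the 5 fish of the lower run and 8.02 to 19.3 CPM in those of the higher run. It had 9.27 to 13.7 CPM in exercised and 11.2 to 13.8 CPM in unexercised fish of 9 weeks. A 255-bp member had 18.1 to 20.9 CPM in the lower run and 25.2 to 28.7 CPM in the higher run, beside 25.7 to 28.1 CPM in exercised and 24.4 to 30.9 CPM in unexercised fish of 9 weeks. With all libraries neither passed against exercised fish of 9 weeks (edgeR log2 fold change -0.13, SE 0.32, adjusted p = 0.839 for the 339-bp member and -0.15, SE 0.17, adjusted p = 0.626 for the 255-bp member). Nfu_g_1_026718 (24 bp) had 40.6 to 75.9 CPM in the lower run and 60.5 to 75.3 CPM in the higher, and with the lower run alone it was lower than in unexercised fish of 9 weeks beyond the threshold (edgeR log2 fold change -0.60, SE 0.18, adjusted p = 0.0372).

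Slightly more members lay higher than lower in fish of 27 weeks, and this changed with the run of titles, the scaling and single libraries. With library totals only, the median over all genes tested fell as well. The median log2 fold change of the members was 0.05 with age among exercised fish, with 59.0% of them above 0, against 0.01 and 52.2% over all genes tested. Against unexercised fish of 9 weeks it was 0.05, with 60.0% above 0, against 0.01 and 52.1%. Without replicate 8 the 2 medians were 0.02 and 0.02, the first against -0.0061 over all genes tested. With age, the median was 0.0172 with a length trend removed, which can draw the shortest genes toward 0 by itself. There 53.0% were above 0, against 52.2% of all genes tested. The members' median with age was 0.02 with library totals only, against -0.01 over all genes tested. It was 0.02 without replicate 4 of the exercised 9-week fish and 0.03 without 27-week replicate 9, against 0.01 in each. Against unexercised fish it was 0.0083 without 27-week replicate 9, with 53.5% above 0, 0.03 without unexercised replicate 1, 3 or 4, and 0.07 without unexercised replicate 2.

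With the lower run only, the medians were -0.02 with age and -0.05 against unexercised fish of 9 weeks, with 89 and 70 of 200 members above 0. With the higher run without replicate 8, they were 0.11 and 0.09, with 148 and 147 members above 0. Over all genes tested the medians in these 4 fits lay between -0.00 and 0.01. The labels give the same age and exercise for both runs, so these do not differ between the runs. What the runs mark is not given. In the comparisons with 9-week fish, age, exercise where it differs, and what the runs mark cannot be told apart.

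The members' rank among blocks of other lengths differed between the runs in the same way. Among 61 blocks of up to 200 well-expressed genes ordered by length, the members' median fold change ranked 4th from the top with age and 3rd against unexercised fish of 9 weeks. With the higher run without replicate 8 it ranked 1st in both, and with the lower run it ranked 45th and 59th. Within the set, 4 groups of 50 by rising length had medians of 0.04, 0.03, 0.04 and 0.06 with age, 0.05, 0.05, 0.04 and 0.05 against unexercised fish of 9 weeks, and -0.05, -0.01, -0.04 and -0.04 with exercise at 9 weeks.

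**Figure D5:**
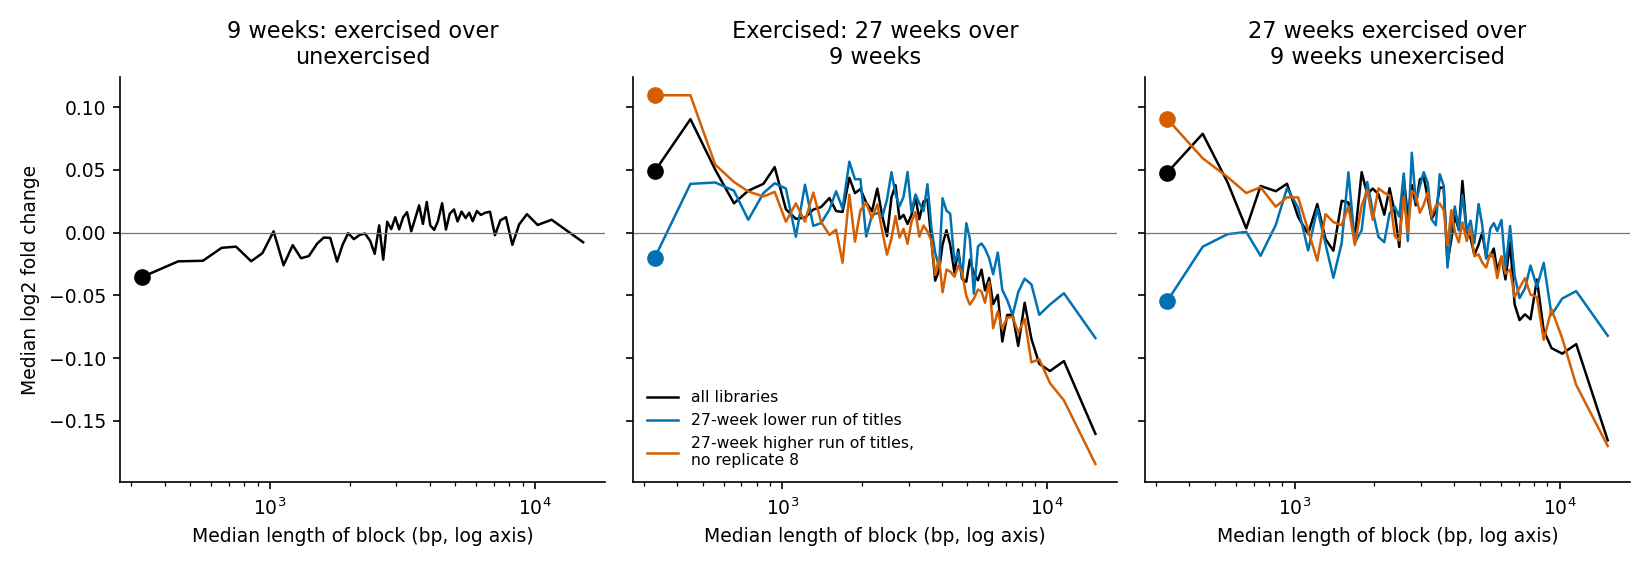
Median log2 fold change along gene length. Each line gives the median log2 fold change (edgeR) of blocks of up to 200 well-expressed genes against the median length of the block (bp, log axis), with a marker at the members, for exercise at 9 weeks, age among exercised fish, and exercised fish of 27 weeks against unexercised fish of 9 weeks. The members lie at 0.11 and 0.09 with the higher run without replicate 8, and at -0.02 and -0.05 with the lower run.

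The abundant members followed the runs in the comparison with unexercised fish. Of the 22 members of 100 CPM or more, 18 were above 0 with the higher run without replicate 8 (median log2 fold change 0.08), and 4 with the lower run (median -0.07), against unexercised fish of 9 weeks. Against exercised fish of 9 weeks, 20 were above 0 (median 0.15) with the higher run without replicate 8 and 11 (median 0.00) with the lower run. Among the other genes of 100 CPM or more, 39.0% to 42.5% were above 0 in these 4 fits. In bulk brain RNA, fewer cells of a type and less RNA per cell cannot be told apart, and whether differences in the makeup of the samples or in RNA quality moved with these values was not tested, since no marker could be named.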

How the data were processed

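Per the labels' protocols, total RNA went through Illumina's TruSeq kit v2. STAR 2.4.1d, featureCounts 1.4.6-p4 and bcl2fastq 1.8.4 are listed in the submitters' processing notes, with no role or order. Build, annotation and strand setting are not given here in the sources used, so reads of near-identical, overlapping or antisense genes cannot be told apart. Raw counts and RPKM values were deposited by the authors, in 1 table each, and all columns were matched by sample title.

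The deposited RPKM values were divided by the library totals taken in turn down the table, not each by its own library's. They served only to recover gene length, in the library with the most counts of the gene, which gave whole numbers within 0.01 bp for all 200 members. With each library's own total, 197 of the 200 stayed members.

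For each comparison, its 2 labelled groups were fitted with edgeR 4.0.16 (R 4.3.3) over all genes that passed filterByExpr, with TMM factors, no covariate and the two-sided quasi-likelihood test. A Benjamini-Hochberg adjusted p below 0.05 over all genes tested was a call. CPM used raw library totals, with 0.5 added before log2. Alternatives were other scalings, DESeq2 1.42.0, no filter, all libraries in the fit, a removed length trend, each library left out, each run of titles, and other member sets. Fits were tested on simulated counts. Every pair of replicates differed by more than sampling noise (chi-square per degree of freedom of at least 7.86).

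The members and alternatives were chosen with earlier results of these data known. Identifiers are given by rule for the shortest member, those highest in level and in level per kilobase, and the called members with the largest rise and fall in each comparison with 27-week fish. No fall was called in the age comparison.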

Additional observations from a re-analysis of the deposited data

Results flagged for a closer look

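In 2 of 24 groups of values tested, 1 library lay farther from its group than Dixon's test at the 95% level allows, where chance gives about 1 in 20. Both concern replicate 8 of the 27-week fish. The members' share of counts was 1.88% there, against 1.31% to 1.59% in the other 9 fish of 27 weeks. This sum includes 2 members that reach 10 CPM only through that library, and without them the share was 1.59% there, against 1.31% to 1.58% in the other 9, and no longer stood apart by the same test. The shortest member, Nfu_g_1_026254 (23 bp), had 124.6 CPM there, against 57.2 to 69.8 CPM in the other 9.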

How the results depend on the processing

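With exercise at 9 weeks, 0 members were called in edgeR under every other setting run, where at most 0.0994% of all genes tested passed. DESeq2 called 2 (1.0% against 1.75% of genes), or 1 without the 2 members that reach 10 CPM through replicate 8. The members' median log2 fold change was below 0 throughout. With age among exercised fish, 4 members were called (2.0% of the members against 2.16% of all genes tested). The count was 2 with library totals only (1.0% against 0.343%), and 8 when replicate 8 was left out too (4.0% against 4.55%). It was 18 by DESeq2 (9.0% against 8.43% of genes) and 12 with all 20 libraries in the fit (6.0% against 6.12%). With the length trend removed and replicate 8 left out it was 9 (4.5% against 3.99%). Without the 2 members that reach 10 CPM through replicate 8, these settings gave 2, 6, 16, 11 and 8 in turn. The count was 30 with the lower run of titles (15% against 16.4%), or 29 without those 2 members. With the higher run of titles it was 0 (against 0.592%). Without replicate 8 of that run it was 2 (1.0% against 1.34%), or 1 without those 2 members. With a minimum of 20 CPM it was 7 of 200 members (against 2.16%). Leaving out single libraries gave 0 to 10. The count was 1 without replicate 1, 2 or 3 of the exercised 9-week fish (0.5% against 0.518%, 0.225% and 0.696%). Without replicate 4 of these fish it was 0 (against 0.0356%). There 33 members had an unadjusted p below 0.05 (edgeR, 16.5% against 15.99%). It was 2 without 27-week replicate 2 or 5 (1.0% against 0.963% and 0.994%). Without 27-week replicate 6 it was 7 (3.5% against 3.7%), and without replicate 8 it was 10 (5.0% against 4.71%).

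Against unexercised fish of 9 weeks, 7 members were called (3.5% of the members against 4.35% of all genes tested). With library totals only the count was 0 (against 0.628%). There 38 of 200 members had an unadjusted p below 0.05 (edgeR), against 18.3% of all genes tested. When replicate 8 was left out too it was 21 (10.5% against 8.44%). It was 26 by DESeq2 (13.0% against 11.4% of genes) and 21 with all 20 libraries in the fit (10.5% against 9.1%). With the length trend removed and replicate 8 left out it was 18 (9.0% against 6.63%). The count was 43 with the lower run of titles (21.5% against 23.0%). With the higher run of titles it was 4 (2.0% against 1.04%), and 3 without replicate 8 (1.5% against 1.64%). Without the 2 members that reach 10 CPM through replicate 8, the counts with the runs of titles stayed the same. The count with library totals only and replicate 8 left out was then 20. It was 25 by DESeq2, 20 with all 20 libraries in the fit, and 17 with the length trend removed and replicate 8 left out. With a minimum of 5 CPM the count was 11 of 200 members (against 4.35%). Leaving out single libraries gave 2 to 19. The count was 2 without unexercised replicate 1 or 4 (1.0% against 0.746% and 0.888%). It was 3 without unexercised replicate 3 or 5 or 27-week replicate 5 (1.5% against 1.61%, 0.898% and 1.74%). Without 27-week replicate 6 it was 13 (6.5% against 5.87%). Without replicate 8 it was 19 (9.5% against 7.93%), or 18 without those 2 members. The cause of these changes was not tested.

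The median log2 fold change of the members moved by more than the spread between fish with the higher run of titles (0.14 with age and 0.14 against unexercised fish) and with the lower run of titles (-0.055 against unexercised fish). With replicate 8 left out of the higher run, the medians were 0.11 and 0.09, a move within that spread. The lower run with age (-0.02) was within it too. The members' share in exercised fish of 9 weeks was 1.41% without the 10 most counted genes. No result of the 4 named gene tests changed direction. The call of Nfu_g_1_015064 was lost with library totals only, that of Nfu_g_1_023319 in 3 settings and those of Nfu_g_1_021454 in 10 settings each. Settings that leave replicate 8 out together with another change, or leave out the 2 members that reach 10 CPM through it, were added after seeing the data. No paired analysis was possible because replicate numbers here are names only. The 2 members that reach 10 CPM through replicate 8, the low counts of members near 10 CPM and the 5 fish of each 9-week group limit what can be told here.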
